A study of Homo sapiens with 12 samples.

Results

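The genes described here are 10 that encode glycoproteins and proteoglycans of mesenchymal extracellular matrix: LUM, DCN, BGN, VCAN, FN1, SPARC, FBN1, FBLN5, POSTN and TNC. They were taken by symbol from the 58051 genes in the count files, and all 10 were found. LUM, VCAN and FBLN5 were included because they were higher in afatinib-resistant cells, so for these 3 genes every value that involves afatinib-resistant cells is a description without a test. The parental libraries entered this choice too, so p-values and intervals of these 3 genes that use parental cells are not independent of it. The other 7 were listed as genes of the same matrix. They and the further gene lists used below were chosen with earlier results of these data known. Shares of them that were called are therefore set beside those of all genes as a description.

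The cells were FaDu, a line from a hypopharyngeal squamous cell carcinoma, and Cal27, a line from a tongue squamous cell carcinoma, both labelled wild type. Each line was compared as parental cells, as a model with acquired resistance to afatinib (AfaR), an inhibitor of the whole ERBB receptor family, and as a model with acquired resistance to erlotinib (ErlR), an inhibitor of EGFR. By the study's methods, every model arose in culture under stepwise rising doses and was kept under its drug until 24 h before experiments, so a line and a drug are represented by a single resistant population. The 6 groups had 2 libraries of poly(A) RNA each, labelled as biological replicates, and nothing in the labels says how separately the replicates were grown, so p-values measure the spread between these libraries.

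Libraries held from 16334937 to 23399259 counts on genes. Replicates differed by more than counting noise, with a chi-square per degree of freedom of 12.7 to 26.7 in the 6 groups, and edgeR put the coefficient of biological variation between replicates at 14.5% in the FaDu fit and 15.3% in the Cal27 fit. All 15 epithelial markers, among them KRT5, EPCAM and TP63, averaged at least 1 CPM (counts per mega-count, the count divided by the TMM-scaled library size) in every group. Of the 10 immune markers, 4 to 6 averaged at least 1 CPM in each group, most of all CD14 at 7.91 to 11.8 CPM, with CSF1R and PTPRC, while 3 or 4 had 0 counts in both libraries of a group, CD2 and MS4A1 among them in every group. Levels are given in CPM, as mean ± SD over n = 2 libraries. Fold changes come from edgeR's quasi-likelihood fit of the line, and a gene was called at a Benjamini-Hochberg adjusted p under 0.05 with a log2 fold change over 1 in size.

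Extracellular matrix outside the basement membrane is built mainly by fibroblasts and other mesenchymal cells, on a scaffold of collagen fibrils and elastic microfibrils. Small leucine-rich proteoglycans (LUM, lumican, DCN, decorin, and BGN, biglycan) bind collagen fibrils and govern their spacing, and VCAN (versican) is a large chondroitin sulfate proteoglycan that binds hyaluronan. FN1 (fibronectin) is assembled into fibrils through integrins, FBN1 (fibrillin-1) forms microfibrils, and FBLN5 (fibulin-5) organizes elastic fibres. SPARC, POSTN (periostin) and TNC (tenascin-C) are matricellular proteins, which act mostly on cell adhesion and signalling and less as scaffold. Carcinoma cells that take on mesenchymal features can make several of these proteins themselves, and FN1, TNC and SPARC are also made by many epithelial tumor lines.

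On GRCh38, LUM (ENSG00000139329) spans 91102629 to 91111831 of chromosome 12 on the minus strand. DCN (ENSG00000011465) lies 28.7 kb beyond it, from 91140484 to 91183123 on the same strand. BGN (ENSG00000182492) lies on the plus strand of chromosome X from 153494939 to 153509554. VCAN (ENSG00000038427) occupies 83471465 to 83582303 on the plus strand of chromosome 5. SPARC (ENSG00000113140) lies far from it on the minus strand of the same chromosome, from 151661096 to 151687165. FN1 (ENSG00000115414) spans 215360440 to 215436172 of chromosome 2, and FBN1 (ENSG00000166147) spans 48408306 to 48645849 of chromosome 15, both on the minus strand. FBLN5 (ENSG00000140092) lies at 91869412 to 91947987 on chromosome 14, POSTN (ENSG00000133110) at 37562583 to 37598844 on chromosome 13, and TNC (ENSG00000041982) at 115019578 to 115118257 on chromosome 9, all on the minus strand. Values are for all exons of a gene together. Exons of VCAN overlap the antisense gene VCAN-AS1 and those of SPARC the antisense gene CLMAT3, which had at most 3 and 5 counts in any library.

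SPARC, TNC and FN1 were the abundant genes of the set in both parental lines, at far higher levels in Cal27 than in FaDu. Per kb of exon, Cal27 parental cells had most SPARC, at 88.5 CPM per kb, followed by TNC at 59.9 and FN1 at 17.6, and these 3 did not overlap between libraries. The other 7 genes lay at 0.123 CPM per kb or below, and from FBLN5 through BGN, FBN1, VCAN and LUM to POSTN each overlapped the next in that order. In FaDu parental cells the same 3 genes led at much lower levels, with TNC at 0.973, FN1 at 0.886 and SPARC at 0.693 CPM per kb, and TNC and FN1 overlapped. Summed over the 10 genes, the libraries reached 30.5 and 35.5 CPM in FaDu parental cells and 1236 and 1389 CPM in Cal27 parental cells.

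**Figure D1:**
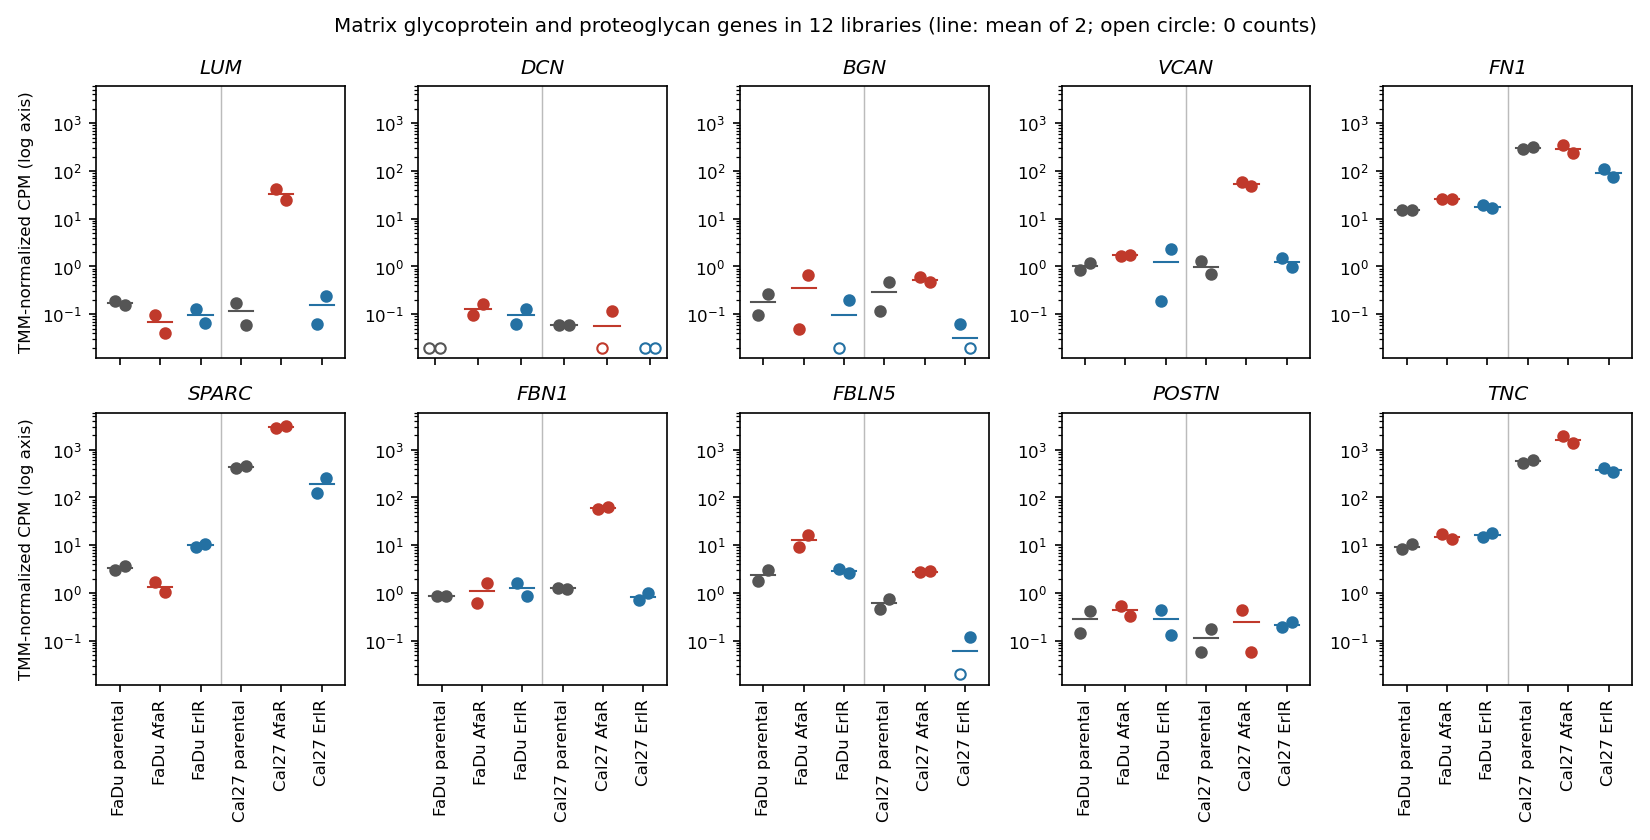
TMM-normalized CPM (log axis) of the 10 genes in the 12 libraries, with a point for each library, a line at the mean of 2 and open circles for libraries with 0 counts. SPARC, TNC and FN1 are the abundant genes in all Cal27 groups, while LUM, VCAN and FBN1 stand high in the Cal27 AfaR libraries, at 24.3 to 62.7 CPM, and lie at or below 2.35 CPM in the others.

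The parental lines were compared in a fit of all 12 libraries, in which 31.6% of the genes tested were called in either direction. SPARC was at 3.06 and 3.64 CPM in FaDu and at 408 and 448 CPM in Cal27 parental cells. TNC was at 8.25 and 10.5 CPM in FaDu and at 536 and 618 CPM in Cal27. FN1 was at 15.3 and 15.4 CPM in FaDu and at 288 and 321 CPM in Cal27. For these 3 genes every Cal27 library lay far above every FaDu library, with log2 differences of 7.00 for SPARC (standard error 0.349, adjusted p = 1.71e-08), 5.94 for TNC (adjusted p = 2.4e-09) and 4.31 for FN1 (adjusted p = 2.36e-08). FBLN5 was the gene called the other way, at 1.75 and 3.01 CPM in FaDu and 0.466 and 0.758 CPM in Cal27, a log2 difference of -1.94 (adjusted p = 0.00434), and this call was lost against a fold change of 2 itself (adjusted p = 0.0594). These parental libraries also entered the choice of FBLN5, so its test is not independent of that choice. LUM, BGN, VCAN and FBN1 were tested and not called, and DCN and POSTN had too few counts to be tested. LUM and BGN had passed the filter through AfaR libraries. The intervals of those not called were wide, for example from -1.46 to 1.42 for VCAN. Spike-in scaling moved the median of all genes from 0.04 to 0.62 and the split of calls from 3099 higher and 2031 lower to 5340 and 956, kept these 4 calls and added FBN1 at 1.09.

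RefSeq promoter windows of 300 bases, from 250 before to 50 after an annotated start on GRCh38.p14, were found for 8 of the 10 genes, not for LUM and DCN. The windows of VCAN, FN1, SPARC, FBN1 and TNC are shown because these 5 genes had the highest CPM in Cal27 AfaR cells among the genes with a window. Capitals mark matches to any of 6 motifs on either strand, with overlapping matches of a motif counted separately. The core promoter motifs searched were the letters TATAA of the box that binds TBP and the letters GGGCGG of the box that binds SP1. The E-box letters CACCTG, of the kind bound by ZEB and SNAI repressors, and the letters TGACTCA of an AP-1 site were searched as well. The last searches were for the letters CAGAC of a SMAD half-site and for the letters CATTCC of a TEAD site. Each sequence runs 5′ to 3′ on the strand of its gene.
VCAN (chr5:83471494-83471793, plus strand): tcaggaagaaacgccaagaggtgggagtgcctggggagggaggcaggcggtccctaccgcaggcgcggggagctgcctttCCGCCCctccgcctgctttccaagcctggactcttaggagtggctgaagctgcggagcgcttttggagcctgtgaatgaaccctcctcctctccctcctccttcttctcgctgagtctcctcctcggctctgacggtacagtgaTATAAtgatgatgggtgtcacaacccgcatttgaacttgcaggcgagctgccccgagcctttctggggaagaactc
FN1 (chr2:215436019-215436318, minus strand): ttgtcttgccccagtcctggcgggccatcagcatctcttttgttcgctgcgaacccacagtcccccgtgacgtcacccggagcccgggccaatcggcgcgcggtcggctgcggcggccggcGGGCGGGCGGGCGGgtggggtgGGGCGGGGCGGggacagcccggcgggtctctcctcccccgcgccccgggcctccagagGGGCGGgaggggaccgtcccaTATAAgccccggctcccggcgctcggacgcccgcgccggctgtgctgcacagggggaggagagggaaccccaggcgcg
SPARC (chr5:151686866-151687165, minus strand): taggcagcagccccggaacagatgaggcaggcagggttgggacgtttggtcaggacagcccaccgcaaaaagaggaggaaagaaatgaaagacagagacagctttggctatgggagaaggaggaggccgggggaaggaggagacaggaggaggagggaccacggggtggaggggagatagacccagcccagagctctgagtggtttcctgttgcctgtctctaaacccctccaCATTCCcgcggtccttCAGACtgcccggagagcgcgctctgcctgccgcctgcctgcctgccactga
FBN1 (chr15:48644921-48645220, minus strand): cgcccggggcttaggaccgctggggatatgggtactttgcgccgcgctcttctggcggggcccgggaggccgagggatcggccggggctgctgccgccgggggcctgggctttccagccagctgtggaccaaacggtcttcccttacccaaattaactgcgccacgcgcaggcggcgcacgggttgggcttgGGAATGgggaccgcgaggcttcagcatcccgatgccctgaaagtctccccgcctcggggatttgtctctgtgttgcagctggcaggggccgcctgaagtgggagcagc
TNC (chr9:115118108-115118407, minus strand): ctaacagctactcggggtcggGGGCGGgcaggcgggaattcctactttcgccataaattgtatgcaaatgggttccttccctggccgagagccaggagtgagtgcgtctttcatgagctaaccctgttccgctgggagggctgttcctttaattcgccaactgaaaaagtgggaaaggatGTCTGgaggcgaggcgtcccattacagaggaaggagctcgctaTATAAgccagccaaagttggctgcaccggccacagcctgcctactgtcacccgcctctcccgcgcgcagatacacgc

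The start sites of these windows lie inside the genes as counted, by 279 bases in VCAN, 104 in FN1, 250 in SPARC, 879 in FBN1 and 100 in TNC. VCAN, FN1 and TNC hold TATAA 1 time each, a match present in 20.4% of the 35116 windows of this length. FN1 has 6 matches to the GC box, which 45% of all windows hold, and VCAN and TNC have 1 each. SPARC and FBN1 have 1 TEAD match each, against 14% of all windows, and SPARC and TNC have 1 SMAD half-site each, against 45.3%. CACCTG, present in 20.6% of all windows, is in none of the 9 windows of the 8 genes. TGACTCA, present in 4.95%, is in that of POSTN and in no other of the 9. The 5 windows shown differ in base composition, from 57.3% G and C in TNC to 76.7% in FN1, against a median of 58.7% over all windows, and the lowest of the 9 is that of POSTN at 39%.

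Cal27 AfaR cells differed most from their parental cells in these matrix genes. SPARC, FBN1 and TNC rose, LUM, VCAN and FBLN5 were higher as the choice of genes implies, and FN1 was not called. The summed level of the 10 genes went from 1313 ± 109 to 5019 ± 245 CPM, of which SPARC made up 58.8% and TNC 32.3%. Among the 7 genes not chosen on a rise, 4 passed the filter on low counts, and 3 of these were called higher and 0 lower, where 11.5% of all genes tested were called higher and 8.06% lower. DESeq2 likewise called 0 lower, and 0 were lower at an unadjusted p under 0.05 in edgeR.

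FBN1, the microfibril gene, had 22 and 21 counts in the parental libraries and 1085 and 1080 in the AfaR libraries. Its level went from 1.28 and 1.23 CPM to 58.6 and 62.7 CPM, with the replicates of each group close together. The log2 fold change was 5.59 (95% interval 5.12 to 6.06, adjusted p = 9.56e-07). SPARC went from 408 and 448 CPM to 2782 and 3104 CPM, the highest level of the 10 genes in any group. Its log2 fold change was 2.78 (95% interval 2.11 to 3.46, adjusted p = 0.000138). TNC went from 536 and 618 CPM to 1891 and 1367 CPM, with both AfaR libraries above both parental ones. Its log2 fold change was 1.5 (95% interval 1.08 to 1.92, adjusted p = 0.000319). These 3 calls were kept in each alternative fit, including a test against a fold change of 2 itself and fits without 1 library.

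FN1 was the exception among the abundant genes. It was at 288 and 321 CPM in parental cells and at 356 and 235 CPM in AfaR cells, so the groups overlapped. The log2 fold change was -0.04, with a 95% interval from -0.54 to 0.46.

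LUM had 3 and 1 counts in the Cal27 parental libraries and 794 and 418 in the AfaR libraries, or 0.175 and 0.0583 CPM against 42.9 and 24.3 CPM. The ratio of the summed counts, 1212 against 4, was 291 after scaling, as a description of a gene chosen on this rise. LUM passed the filter in Cal27 through the AfaR libraries, and its fitted log2 difference of 8.09 was 9.00 without parental replicate 1 and 7.53 without parental replicate 2. VCAN went from 1.28 and 0.700 CPM to 58.4 and 48.8 CPM, a log2 difference of 5.75. FBLN5 went from 0.466 and 0.758 CPM to 2.75 and 2.84 CPM, a log2 difference of 2.18. For each of the 3 genes both AfaR libraries lay above both parental libraries, which their choice for higher levels in AfaR cells favoured. Per kb of exon, LUM at 11.2 CPM in AfaR cells came close to FN1 at 17, with libraries that overlapped, while FBN1 at 3.78 and VCAN at 3.61 overlapped each other and lay below LUM.

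**Figure D2:**
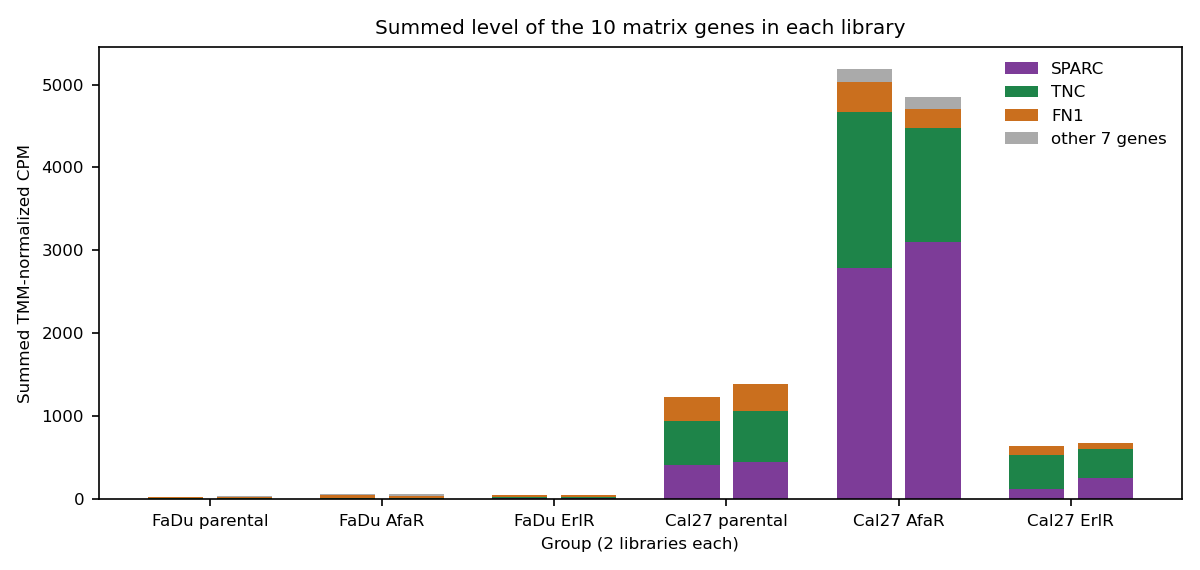
Summed TMM-normalized CPM of the 10 genes in each of the 12 libraries, stacked as SPARC, TNC, FN1 and the other 7 genes, on a linear axis from 0. The Cal27 AfaR libraries reach 5192 and 4846 CPM against 1236 and 1389 CPM in Cal27 parental cells, and the FaDu libraries stay at or below 61.1 CPM.

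Markers of other cell types are given beside these values. The summed level of the 15 epithelial markers was 8711 and 7366 CPM in the Cal27 parental libraries and 2887 and 2824 CPM in the AfaR libraries, and 11 of the 15 were called lower, KRT14 by -7.24 and EPCAM by -2.84 on the log2 scale. The 12 fibroblast markers summed to 36.1 and 48.8 CPM in parental and 343 and 343 CPM in AfaR cells, mostly COL1A1, a chain of type I collagen, at 30.4 and 269 CPM. COL1A1, PDGFRB and TWIST1 were called higher, while the fibroblast markers PDGFRA, DPT and FAP were at 0.054 CPM or below in AfaR cells and TCF21 was at 0 counts. The endothelial markers summed to 32.2 and 34.2 CPM in parental and 38.1 and 30.5 CPM in AfaR cells, and none was called by edgeR or DESeq2 or passed an unadjusted p of 0.05. The immune markers summed to 16.4 and 22.2 against 19.5 and 16.8 CPM, with CD68 called lower by edgeR and no marker called by DESeq2. In bulk RNA, fewer cells of a type and less RNA per cell cannot be told apart, and the part of a change in cell makeup in the matrix values was not tested.

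Around these genes, 125 further matrix genes in 7 lists were looked up, of which 89 were tested in Cal27. In Cal27 AfaR cells 28 were called higher and 5 lower, beside 11.5% and 8.06% of all genes tested, and their median log2 fold change was 0.52, while that of all genes tested rounds to 0.00. HMCN1, TGFBR3, CHSY3 and HAPLN1 had fewer than 10 counts in both parental libraries, too few for these libraries to carry them past the filter. They count among the 28, and their changes are given as descriptions. CCN5, with 6 and 12 parental counts, also needed the AfaR libraries to pass and counts among the 28. Requiring at least 10 counts in every library gave 22 further matrix genes called in place of 33. Elastic fibre genes had 7 of 17 called higher, among them LOX, LOXL2 and MFAP2. HMCN1 (hemicentin-1) changed most, from 1 and 2 counts to 183 and 89, a ratio of 87 (95% counting interval 29.5 to 425). Of 18 matricellular genes tested, 6 were called higher and 1 lower. CCN3, which encodes a secreted regulator of cell growth, rose from 0.758 ± 0.0833 to 41.6 ± 0.727 CPM (log2 fold change 5.77, adjusted p = 2.83e-06). SMOC2, which encodes a calcium-binding relative of SPARC, had 14 and 17 counts in parental cells and 1 and 0 in AfaR cells (adjusted p = 0.00591).

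Among the integrin genes through which cells bind fibronectin, 4 of 7 were called higher and 2 lower in Cal27 AfaR, although FN1 itself was not called. ITGA5, the alpha chain of the main fibronectin receptor, rose from 60.2 ± 2.79 to 240 ± 39.0 CPM (log2 fold change 1.99, adjusted p = 3.7e-05), and its partner ITGB1 was called higher at 1.03. ITGB6, part of an integrin of epithelia, fell from 61.7 ± 14.2 to 17.7 ± 1.55 CPM (log2 fold change -1.80, adjusted p = 0.000133). Among the heparan sulfate proteoglycan list, 4 of 12 were called higher, and TGFBR3 (betaglycan) went from 2 and 1 counts to 223 and 145, a ratio of 118 (95% counting interval 40.0 to 573). Of 28 enzymes of glycosaminoglycan chains, 4 were called higher, a share near the 11.5% of all genes tested, and CHST7 was called lower, just past the fold limit. The largest rise was that of CHSY3, a chondroitin synthase, from 5 and 7 counts to 69 and 56 (log2 fold change 3.29). In the hyaluronan list the link protein HAPLN1 went from 9 and 7 counts to 79 and 34, a log2 fold change of 2.73. CD44, the hyaluronan receptor, rose by 1.04 and the synthase HAS3 fell by 1.60 (adjusted p = 0.00213) on the log2 scale. Of the small leucine-rich proteoglycans other than the 10 genes, PODNL1 was the 1 tested, at 0.700 ± 0.331 CPM in parental and 9.00 ± 5.59 CPM in AfaR cells (log2 fold change 3.68). It had 8 and 16 counts in parental and 240 and 87 in AfaR cells. Since it passed the filter through the AfaR libraries, its call as higher is given as a description.

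Among the 10 genes, those called in Cal27 ErlR cells were lower than in parental cells, while those called in AfaR cells were higher. SPARC was the only gene called in both. FN1 and SPARC fell, FBLN5 was called lower on few counts, and none of the 7 genes tested was called higher by edgeR or DESeq2, nor higher at an unadjusted p under 0.05. The summed level was 660 ± 26.6 CPM, against 1313 ± 109 CPM in parental cells, and TNC was the largest part of it at 57.0%. The filter kept 7 of the 10 genes, LUM and FBLN5 through the AfaR libraries, in which they were chosen as high, so the 3 genes called lower are not read against the 9.92% of all genes tested that were called lower and the 3.56% called higher. With only the 4 libraries compared, 5 of the 10 genes passed the filter and 2 of them, FN1 and SPARC, were called lower. The AfaR and ErlR comparisons share the 2 parental libraries of the line.

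FN1 went from 288 and 321 CPM in Cal27 parental cells to 108 and 74.3 CPM in ErlR cells, with no overlap. Its log2 fold change was -1.76 (95% interval -2.28 to -1.24, adjusted p = 0.000969). SPARC went from 408 and 448 CPM to 122 and 260 CPM, the ErlR libraries differing from each other by more than the parental ones did. The log2 fold change was -1.19 (95% interval -1.83 to -0.55, adjusted p = 0.0143), and without ErlR replicate 1 it was -0.74 and was no longer called. FBLN5 had 8 and 13 counts in parental cells and 0 and 2 in ErlR cells, where 3 counts would correspond to 0.192 and 0.183 CPM. Since it passed the filter through the AfaR libraries and was not tested with only the 4 libraries compared, its call as lower (adjusted p = 0.0272) is given as a description, and the ratio of summed counts, parental over ErlR, was 9.80 with a 95% counting interval from 2.40 to 86.2. The call was lost against a fold change of 2 itself (adjusted p = 0.168) and in 4 of the 6 fits that left out 1 library, with an adjusted p of 0.12 without parental replicate 2, 0.0584 and 0.0562 without AfaR replicates 1 and 2, and 0.123 without ErlR replicate 1.

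TNC was at 408 and 342 CPM in Cal27 ErlR against 536 and 618 CPM in parental cells. Its log2 fold change of -0.65 had an adjusted p of 0.0286 and was under the fold limit of the call. FBN1 was at 0.703 and 0.978 CPM against 1.28 and 1.23 CPM in parental cells (log2 fold change -0.59, 95% interval -1.25 to 0.06). VCAN was at 1.47 and 0.978 CPM and overlapped the parental libraries (log2 fold change 0.27, 95% interval -0.56 to 1.11). LUM had 1 and 4 counts, with a log2 fold change of 0.37 and a 95% interval from -2.06 to 2.81.

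**Figure D3:**
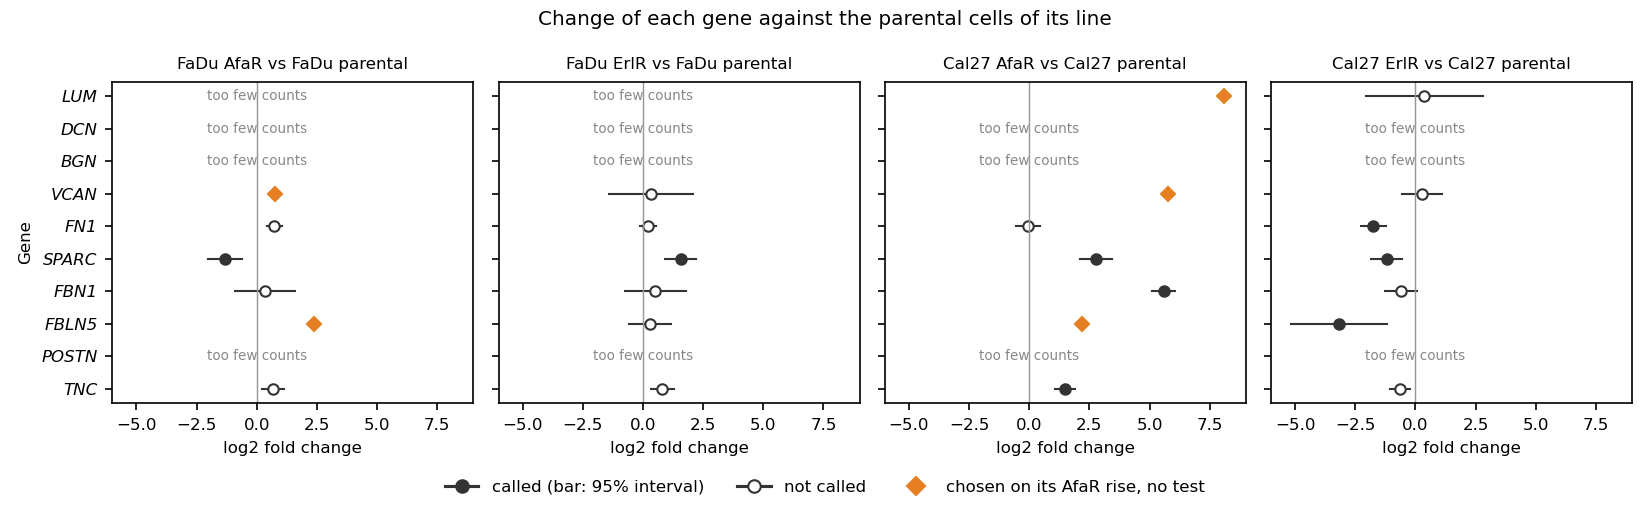
Log2 fold change of each of the 10 genes against the parental cells of its line in the 4 resistant models, with bars for 95% intervals, filled points for called genes, open points for genes not called and diamonds for genes chosen on their AfaR rise. In Cal27, SPARC lies at 2.78 in AfaR and at -1.19 in ErlR, and in FaDu it lies at -1.32 in AfaR and at 1.56 in ErlR.

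Of the 89 further matrix genes tested, 10 were called higher and 14 lower in Cal27 ErlR, beside 3.56% and 9.92% of all genes tested, and their median log2 fold change was -0.14, beside -0.03 for all genes. Lysyl oxidases, which cross-link elastin and collagen, moved in both directions. LOXL4 fell from 253 and 1123 counts to 2 and 6, a ratio of 161, parental over ErlR (95% counting interval 81.2 to 373), and LOX and LOXL1 were called lower, while LOXL3 was called higher. FBN2, which encodes fibrillin-2, the paralog of FBN1, rose from 16.0 ± 0.182 to 93.6 ± 8.16 CPM (log2 fold change 2.52, adjusted p = 5.11e-05). In the heparan sulfate list 2 of 12 were called lower, GPC4 (glypican-4) from 13.9 ± 6.20 to 1.32 ± 0.306 CPM and HSPG2 (perlecan) with a log2 fold change of -2.18. In the hyaluronan list HAS3 rose from 19.3 ± 4.93 to 46.7 ± 13.0 CPM (log2 fold change 1.25, adjusted p = 0.00787), opposite to its direction in AfaR cells, and the brain proteoglycan gene BCAN fell by 3.44 on the log2 scale. Among matricellular genes SPP1 (osteopontin) was called higher at 1.47. CCN5 had 6 and 12 counts in parental cells and 0 in both ErlR libraries. It needed the AfaR libraries to pass the filter, so its call, which counts among the 14 lower, is given as a description. Its parental mean of 0.525 CPM, itself from few counts, was 2.8-fold above a floor of 3 counts per ErlR library.

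Of the integrin genes in Cal27 ErlR, ITGB5 rose by 1.43 (adjusted p = 0.000414), and ITGB6 and ITGB8 were called lower at -1.89 and -1.40 on the log2 scale. The enzyme list had 3 of 28 called higher and 1 lower, with CHST11, a chondroitin sulfotransferase, at 1.89 and CSGALNACT1, which starts chondroitin chains, at -2.46. PODNL1, the small leucine-rich proteoglycan gene tested, was not called, with a log2 fold change of -1.32. The fibroblast markers summed to 9.9 and 16.7 CPM in Cal27 ErlR against 36.1 and 48.8 CPM in parental cells, with COL1A1, COL1A2, PDGFRB and ACTA2 called lower. The epithelial markers summed to 6236 and 6648 CPM against 8711 and 7366 CPM, with 5 of 15 called lower. The endothelial markers summed to 3.64 and 7.03 CPM against 32.2 and 34.2 CPM, with CDH5 called lower. For the immune markers the sums were 18.8 and 20.0 CPM against 16.4 and 22.2 CPM. Of these CD68 was called lower by edgeR, and no marker was called by DESeq2. The part of these differences in the matrix values was not tested.

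FaDu AfaR cells differed from their parental cells in few of the 10 genes that could be tested. SPARC fell, FBLN5 was higher as chosen, and FN1 and TNC were higher by less than the limit of the call. Of the 7 genes not chosen on a rise, 4 passed the filter, and 1 was called lower and 0 higher, where 0.954% of all genes tested were called lower and 6.48% higher. DESeq2 also called 0 higher, and 2 were higher at an unadjusted p under 0.05 in edgeR, FN1 and TNC. The summed level was 58.8 ± 3.14 CPM against 33.0 ± 3.51 CPM in parental cells.

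SPARC went from 3.06 and 3.64 CPM in FaDu parental cells to 1.70 and 1.03 CPM in AfaR cells, both below both parental libraries. Its log2 fold change was -1.32 (95% interval -2.04 to -0.60, adjusted p = 0.0246). The call rests on few counts, 63 and 70 against 35 and 25, and was lost without parental replicate 1 (adjusted p = 0.0907), parental replicate 2 (0.0998) or AfaR replicate 2 (0.122, log2 fold change -0.99), and against a fold change of 2 itself (0.891). FN1 was at 25.5 and 26.0 CPM against 15.3 and 15.4 CPM, with replicates that hardly differed. The log2 fold change of FN1 was 0.73 (95% interval 0.41 to 1.05, adjusted p = 0.0128). TNC was at 17.1 and 13.2 CPM against 8.25 and 10.5 CPM (log2 fold change 0.67, 95% interval 0.20 to 1.15, adjusted p = 0.0549). FBN1 was at 0.631 and 1.60 CPM and overlapped the parental libraries at 0.874 and 0.884 CPM (95% interval -0.89 to 1.57), and its log2 fold change turned from 0.34 to -0.49 without AfaR replicate 2.

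FBLN5 had 36 and 58 counts in FaDu parental cells and 190 and 394 in AfaR cells, or 1.75 and 3.01 CPM against 9.22 and 16.2 CPM, a log2 difference of 2.40. VCAN was at 1.65 and 1.77 CPM against 0.825 and 1.20 CPM, a log2 difference of 0.74. Both genes had AfaR libraries above both parental libraries, which their choice for higher levels in AfaR cells favoured. LUM had 4 and 3 counts in parental and 2 and 1 in AfaR cells, so the level it had in Cal27 AfaR was not reached in FaDu AfaR.

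Of 81 further matrix genes tested in FaDu, 11 were called higher in AfaR cells, beside 6.48% of all genes tested, and their median log2 fold change was 0.32. No gene was called lower by edgeR or DESeq2, and 6 were lower at an unadjusted p under 0.05. Without FaDu parental replicate 1 the count was 2, and without AfaR replicate 2 it was 4. Matricellular genes had 5 of 14 called higher, THBS1, THBS3, THBS4, CCN3 and SPP1, the last from 12.2 ± 4.71 to 49.3 ± 2.06 CPM (log2 fold change 2.00, adjusted p = 0.0175). Heparan sulfate proteoglycans had 4 of 12 called higher, GPC4 from 2.90 ± 0.460 to 10.4 ± 1.21 CPM (log2 fold change 1.83, adjusted p = 0.00359), with SDC2, SDC3 and HSPG2. LOX and FBN2 were the elastic fibre genes called higher, at 2.22 and 1.45, of 15 tested. Of the 27 chain enzymes tested, 9 were higher and 3 lower at an unadjusted p under 0.05, and none was called by edgeR or DESeq2. The same held for the integrin list, with 2 higher and 1 lower of 7, and the hyaluronan list, with 1 lower of 5, at that limit. The fibroblast markers summed to 21.3 and 21.9 CPM against 8.93 and 11.1 CPM, with TWIST1 and ACTA2 called higher, the epithelial markers to 9310 and 17706 CPM against 13613 and 19826 CPM, with KRT8 and KRT18 called lower, the endothelial markers to 8.3 and 22.2 CPM against 4.18 and 7.02 CPM, and the immune markers to 23.5 and 21.9 CPM against 20.9 and 17.8 CPM. Their part in the matrix values was not tested.

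In FaDu ErlR cells SPARC was the gene of the 10 that rose. Of 6 genes that passed the filter, 1 was called higher, where 1.54% of all genes tested were called higher and 0.504% lower, and none was lower by DESeq2 or at an unadjusted p under 0.05 in edgeR. SPARC had 63 and 70 counts in parental cells and 146 and 163 in ErlR cells, or 3.06 and 3.64 CPM against 9.33 and 10.7 CPM. Its log2 fold change was 1.56 (95% interval 0.91 to 2.22, adjusted p = 0.0257), and the call was lost without parental replicate 1 (adjusted p = 0.163), parental replicate 2 (0.109) or ErlR replicate 2 (0.122), and against a fold change of 2 itself (0.893).

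TNC was at 14.9 and 18.3 CPM in FaDu ErlR against 8.25 and 10.5 CPM in parental cells, with no overlap, and its log2 fold change of 0.81 had an adjusted p of 0.065. With ERCC spike-in totals as the scale, under which the median of all genes in this comparison was 0.49, TNC was at 1.29 and was called. FN1 was at 19.1 and 16.7 CPM against 15.3 and 15.4 CPM (log2 fold change 0.21, 95% interval -0.12 to 0.54). FBLN5, at 3.26 and 2.62 CPM, overlapped the parental libraries (95% interval -0.56 to 1.15), as did FBN1 at 1.66 and 0.850 CPM (95% interval -0.76 to 1.77). VCAN differed more between the ErlR replicates, with 3 and 36 counts, than between the groups, and its 95% interval ran from -1.43 to 2.07. The fold change of VCAN turned from 0.32 to -2.37 on the log2 scale without ErlR replicate 2.

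Of the 81 further matrix genes, 6 were called higher in FaDu ErlR, beside 1.54% of all genes tested, and their median log2 fold change was 0.25. No gene was called lower by edgeR or DESeq2, and 6 were lower at an unadjusted p under 0.05. The hyaluronan list had 3 of 5 called higher. HAS2, a hyaluronan synthase, went from 0.583 and 0.572 CPM to 3.64 and 9.61 CPM (log2 fold change 3.49, adjusted p = 0.0327), and HAS3 and CD44 were at 1.14 and 1.08. SPOCK1, a proteoglycan relative of SPARC, went from 4.95 and 6.97 CPM to 49.4 and 17.4 CPM (log2 fold change 2.48, adjusted p = 0.0257), and TGFBI was called at 1.16. UST, a uronyl sulfotransferase, was the chain enzyme called, at 1.37. The fold changes are relative to the bulk of genes, and spike-in scaling, which moved the split of all calls from 233 higher and 76 lower to 1514 and 62, gave 21 matrix genes called. The fibroblast markers summed to 18.4 and 25.1 CPM in FaDu ErlR, with ACTA2 called higher, and the epithelial markers to 9877 and 13374 CPM, where edgeR called none, DESeq2 called 1 lower, and 2 were higher and 5 lower at an unadjusted p under 0.05. The endothelial markers summed to 7.8 and 6.34 CPM with ERG called higher, and the immune markers to 14.1 and 18.8 CPM. Their part in the matrix values was not tested.

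**Figure D4:**
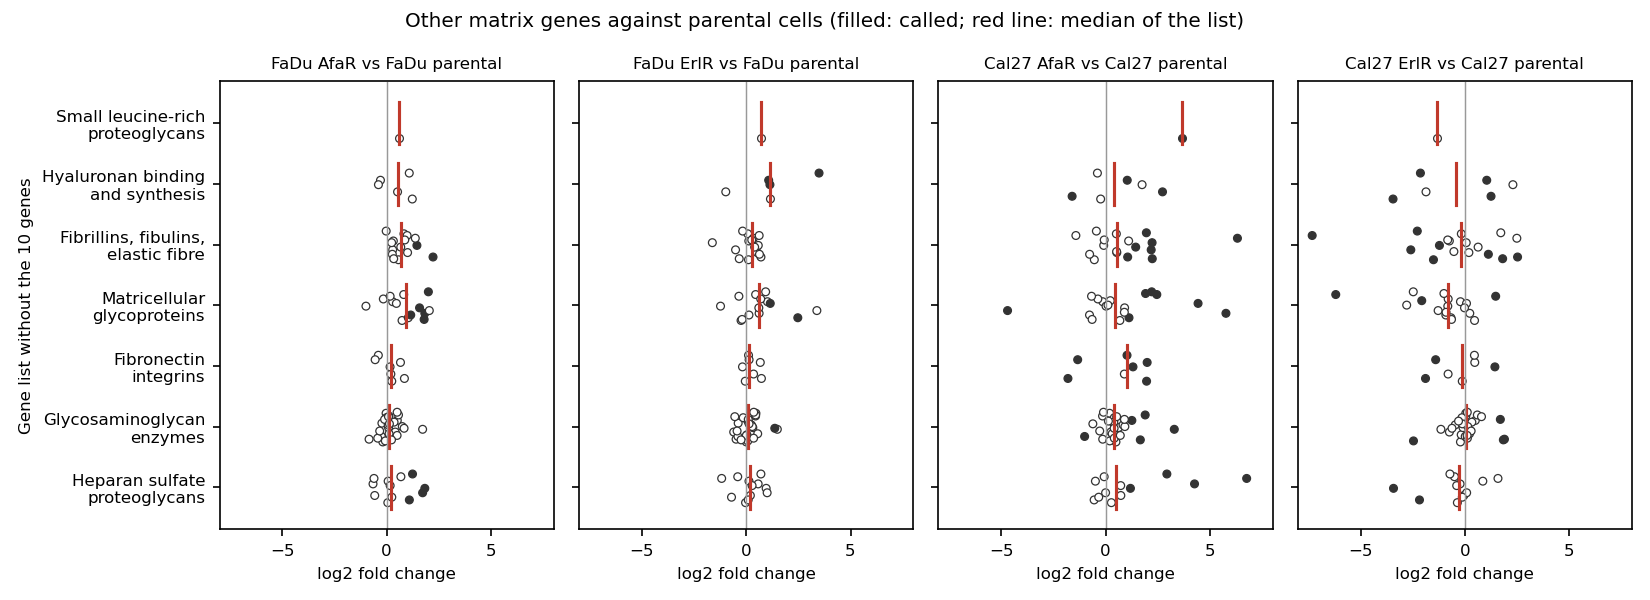
Log2 fold change against parental cells of the tested genes in 7 matrix lists without the 10 genes, in the 4 resistant models, with filled points for called genes and a red line at the median of each list. The Cal27 AfaR panel has 28 genes called higher and 5 lower, and the Cal27 ErlR panel 10 higher and 14 lower.

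The resistant models of a line were also compared with each other. In Cal27, 4 of the 4 tested genes not chosen on a rise were higher in AfaR than in ErlR cells, in a comparison that called 27.1% of all genes in either direction. The log2 differences were 6.18 for FBN1 (adjusted p = 7.84e-07), 3.97 for SPARC (adjusted p = 1.72e-05), 2.15 for TNC (adjusted p = 3.03e-05) and 1.72 for FN1 (adjusted p = 0.000317). As descriptions, LUM, VCAN and FBLN5 were higher by 7.71, 5.48 and 5.36. Leaving out ErlR replicate 1 gave 7.08 for LUM and 4.46 for FBLN5, and leaving out replicate 2 gave 8.88 for LUM and left FBLN5 against the library with 0 counts. In FaDu, SPARC was the 1 of 4 such genes called, lower in AfaR than in ErlR cells by -2.89 on the log2 scale (adjusted p = 0.0019), where 5.94% of all genes were called in either direction, and this call was kept in each fit without 1 library. Spike-in scaling turned the split of all calls in that comparison from 671 higher and 226 lower to 437 and 743, and SPARC stayed called at -3.19. FN1 was higher in FaDu AfaR than in ErlR by 0.52, under the fold limit (adjusted p = 0.0405), and TNC and FBN1 overlapped between the models.

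Whether a resistance effect differed between the lines was tested as an interaction, the FaDu fold change minus that of Cal27. For AfaR, 12.3% of all genes were called in either direction. SPARC had a difference of -4.09 (95% interval -5.13 to -3.05, adjusted p = 0.000121), lower in FaDu and higher in Cal27. FBN1 had a difference of -5.21 (95% interval -6.41 to -4.02, adjusted p = 5.69e-05). FN1, at 0.79, and TNC, at -0.81, were not called (adjusted p = 0.0693 and 0.0583). BGN, at 0.18, had an interval from -2.94 to 3.30 and had passed the filter through AfaR libraries. As descriptions, the difference was -9.39 for LUM, -4.98 for VCAN and 0.24 for FBLN5.

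For ErlR, 10.9% of all genes were called in either direction, and 4 of the 8 genes that passed the filter were called, all with the FaDu effect above that of Cal27. Among the 8, LUM passed through the Cal27 AfaR libraries, in which it was chosen as high. BGN passed through FaDu AfaR replicate 2 and Cal27 AfaR replicate 1, with 16 and 11 counts. The 4 genes called are therefore not read against the 10.9%. The FBLN5 test uses parental libraries that entered its choice. The difference was 2.74 for SPARC (adjusted p = 0.00145), 1.96 for FN1 (adjusted p = 0.00114), 1.45 for TNC (adjusted p = 0.0042) and 3.47 for FBLN5 (adjusted p = 0.0293). The FBLN5 call was lost in 4 fits without 1 library, at adjusted p values from 0.0627 to 0.123, and against a fold change of 2 itself (0.177), where the TNC call was lost as well (0.294). Spike-in scaling moved the median of all genes in this comparison from 0.02 to 0.49 and the split of all calls from 1220 higher and 545 lower to 2632 and 173, and the 4 genes stayed called, SPARC at 3.22. SPARC was called in opposite directions in the lines for both drugs, lower in FaDu AfaR and Cal27 ErlR and higher in Cal27 AfaR and FaDu ErlR than in parental cells.

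DCN, BGN and POSTN stayed near the detection limit. DCN had 13 counts in all 12 libraries together and at most 4 in any of them. With 0 counts in both FaDu parental libraries, levels up to 0.146 and 0.156 CPM are possible there, taking 3 counts as the limit. POSTN had from 1 to 11 counts per library, and its level was at most 0.534 CPM in any of them. BGN had 11 and 8 counts in Cal27 AfaR against 2 and 8 in parental and 1 and 0 in ErlR cells. It did not pass the filter in either line, and without the filter it was called higher in Cal27 AfaR than in ErlR cells (log2 difference 3.81, adjusted p = 0.0151), a ratio of 17 with a 95% counting interval from 2.71 to 707. None of the 3 genes was called by edgeR against parental cells without the filter, although BGN in Cal27 ErlR had an unadjusted p of 0.0349.

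Up to 2 protein-coding neighbours on each side of each gene gave values for the regions around them. In Cal27 AfaR 4 of 25 tested were called higher and 3 lower, shares near the 11.5% and 8.06% of all genes tested. In Cal27 ErlR 1 was called higher and 3 lower, beside 3.56% and 9.92% of all genes. Of 23 tested in FaDu, 2 were called higher in AfaR, beside 6.48%, and 1 in ErlR, beside 1.54%. LUM lies among other small leucine-rich proteoglycan genes, and in the Cal27 AfaR libraries, where it had 794 and 418 counts, KERA (keratocan) had 3 and 0, EPYC (epiphycan) had 3 and 0, and DCN had 0 and 2. The neighbours beyond the 3′ end of VCAN were among those called higher in Cal27 AfaR. HAPLN1, 55.5 kb from VCAN, was at 4.27 and 1.97 CPM against 0.524 and 0.408 CPM, and EDIL3, 358.3 kb away, which encodes a secreted integrin ligand, was at 703 and 578 CPM against 11.5 and 25.7 CPM (log2 fold change 5.10, adjusted p = 1.98e-05). XRCC4, 117.7 kb from the 5′ end, was not called, at a log2 fold change of 0.03. EDIL3 was also called higher in FaDu AfaR at 1.35, and lower in Cal27 ErlR at -1.83.

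Beyond TNC, PAPPA, a secreted protease gene 1035.5 kb away, and ASTN2 were called higher in Cal27 AfaR, and PAPPA went from 4.02 and 3.50 CPM to 26.0 and 16.4 CPM. PAPPA was called lower in Cal27 ErlR, at -2.83 on the log2 scale. ASTN2 had 11 and 8 counts in Cal27 parental, 66 and 32 in AfaR and 1 and 1 in ErlR cells. It passed the filter through the AfaR libraries, so its log2 fold changes of 2.28 in AfaR and -3.03 in ErlR are given as descriptions. The neighbours of SPARC did not move with it, and FAT2, 92.2 kb away, fell from 166 and 210 CPM to 30.9 and 12.9 CPM in Cal27 AfaR (log2 fold change -3.10, adjusted p = 0.000216). TC2N, 1.9 kb from FBLN5, fell by 2.93 on the log2 scale in the same cells, and MREG, 506.6 kb from FN1, was called lower there at -1.50. The direct neighbours of FBN1, DUT and CEP152, had fold changes of -0.90 and -0.63 there, under the fold limit. In FaDu AfaR the tested neighbours of FBLN5 were higher, also under the fold limit. TC2N was at 0.52 (adjusted p = 0.0185), TRIP11 at 0.47 (0.0167) and ATXN3 at 0.47 (0.0413). TC2N was at 0.98 in FaDu ErlR (adjusted p = 0.008), again under the fold limit.

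The genes with the most similar pattern over the 12 libraries were ranked by Pearson's r of log2(CPM + 1), as a description in which the libraries of a line share their background. For LUM they were PCDHB7 and ACSM5, at r = 0.999 and 0.998, both near 0 outside Cal27 AfaR, where ACSM5 averaged 4.34 CPM. For FBN1 they were CH25H, CPA3 and MIR3681HG, at 0.996, 0.993 and 0.993. For VCAN the first was OLFML2B, another matrix glycoprotein gene, at 0.982, with 31.1 CPM in Cal27 AfaR and at most 0.762 CPM in any other group. HSPG2, which encodes perlecan, was the gene most like FN1, at 0.988, with 317 CPM in Cal27 parental, 217 in AfaR and 71.4 in ErlR cells. TBC1D13 was first for SPARC at 0.990, and PCDHGB5 for TNC at 0.995, with 17.8 CPM in Cal27 parental, 51.0 in AfaR and 13.8 in ErlR cells, a gene that shares its last exons with other gamma protocadherins, so its counts are uncertain. FBLN5, the gene with higher levels in FaDu, was most like VANGL2, at 0.967, which averaged 18.6 CPM in FaDu AfaR and 7.52 CPM in FaDu parental cells. SLCO3A1 was first for BGN, at 0.900.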

How the data were processed

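Poly(A) RNA of 12 libraries was analysed, 2 for each of 6 groups taken from the sample labels. By the labels and the study's methods, the authors trimmed reads with Trimmomatic 0.36, aligned them to GRCh38 with STAR 2.5.2b and counted them with featureCounts of Subread 1.5.2. The authors deposited raw counts per Ensembl gene and ERCC spike-in, and the annotation release and strand setting are not given in the sources used here. The deposited tables of normalized counts were not used. GENCODE gave a symbol for 56948 of 58051 identifiers, and spike-ins (3.86% to 5.82% of counts) stayed out of library sizes.

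The quasi-likelihood test of edgeR 4.0.16 was run on the counts (R 4.3.3, TMM, filterByExpr, glmQLFit, glmQLFTest, Benjamini-Hochberg adjustment), with 1 fit per line (6 libraries, 3 residual degrees of freedom) and 1 fit of 12 libraries for interactions and parental lines. The filter kept 15092 genes in FaDu, 15269 in Cal27 and 16240 in all 12. Standard errors are the log2 fold change divided by the root of F. CPM used TMM factors over all 12 libraries. Counting intervals are exact, at 95%, and, like the limit of 3 counts, cover counting error only. Scripts were tested on simulated counts.

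The genes, the 7 matrix lists and the 4 marker lists were chosen with earlier results of these data known. Named from the lists are the called gene with the largest change in each direction, the 3 genes most like each of the 10, and up to 2 coding neighbours on each side. Further called genes were named after their values were seen. Alternatives were DESeq2 1.42.0, upper-quartile and ERCC scaling, other filters, glmTreat, a replicate block, fits of the 4 libraries compared, and leaving out each library.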

Additional observations from a re-analysis of the deposited data

Results flagged for a closer look

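In 6 cases the effect of resistance on a gene differed between the cell lines by the interaction test, given as the FaDu minus the Cal27 log2 fold change. For AfaR these were SPARC, at -4.09, and FBN1, at -5.21. For ErlR they were FN1, at 1.96, SPARC, at 2.74, FBLN5, at 3.47, and TNC, at 1.45. The FBLN5 difference rests on 0 and 2 counts in the Cal27 ErlR libraries, and its call was lost without FaDu parental replicate 1 (3.13, adjusted p = 0.0703), FaDu ErlR replicate 1 (3.30, 0.0627), Cal27 parental replicate 2 (3.08, 0.115) or Cal27 ErlR replicate 1 (2.58, 0.123). FN1 and TNC in AfaR were not called as interactions, and became so without Cal27 AfaR replicate 1 (FN1 at 1.12) and without Cal27 AfaR replicate 2 (TNC at -1.02).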

How the results depend on the processing

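Of 966 fold changes of the 10 genes under the alternatives, 924 stayed on their side of the threshold, of which 30 without a call turned their sign, 22 lost a call, 4 gained one, 15 without a test moved by more than the replicate spread and 1 reversed. That one was VCAN in the ErlR interaction, at 0.03 with all libraries, at -2.65 without FaDu ErlR replicate 2 and at 0.92 without FaDu ErlR replicate 1. DESeq2, upper-quartile scaling, no filter and the replicate block changed no call of the 63 tested or described fold changes of these genes. Replicate numbers did not pair the samples, with correlations of same-numbered deviations from -0.249 to 0.161, and with the replicate block 1 of the 10 genes was called in each FaDu model and 3 in each Cal27 model, as without it. Tested against a fold change of 2 itself, the AfaR and ErlR counts were 0 and 0 in FaDu and 3 and 1 in Cal27, that of the ErlR interaction was 2 in place of 4, and the further matrix genes called were 0, 0, 18 and 13 in place of 11, 6, 33 and 24. ERCC scaling, which moved the median of all genes to 0.18 in FaDu AfaR and 0.49 in FaDu ErlR, gave 2 of the 10 genes in FaDu ErlR, and 17 and 21 further matrix genes in FaDu AfaR and ErlR. Without a filter 10 further matrix genes were called in FaDu ErlR. Leaving out 1 library at a time gave 0 to 1 of the 10 genes in each FaDu model and 1 to 3 in Cal27 ErlR, and 2 to 12 and 2 to 9 further matrix genes in FaDu AfaR and ErlR. The cause of these changes was not tested. At this depth DCN, BGN and POSTN had too few counts to pass the filter in either line.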
